A study of Mus musculus with 7 samples.

Results

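Interferon-stimulated genes are the genes that cells switch on when interferon, a secreted alarm signal against viruses, binds its receptors. They were followed here in mouse hippocampus after noise exposure that models noise-induced hidden hearing loss, abbreviated NIHHL, a form of hearing damage in which thresholds recover. The list held 43 genes given by symbol, and 41 of them matched a symbol among the 21965 genes of the deposited count table. Ddx58, the RNA sensor RIG-I, was found by its Ensembl identifier under its newer symbol Rigi, which made 42, and Mx2 had no row under its symbol and was not analysed here. The members were not selected by their values in these libraries, although the list was drawn up with earlier results of the same data known.

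The study compared 4 NIHHL libraries, from mice exposed to noise of 110 dB for 2 h, with 3 Control libraries from mice labelled as blank controls. Hippocampus was taken 1 month after the exposure per the series' design text, and polyadenylated RNA was sequenced from whole tissue. The sources used here give no strain, sex or age, and do not say whether a library came from a single animal. The p-values therefore set the group difference only against the spread between libraries, which may be technical. Total counts ran from 16982198 to 21585789 in NIHHL and from 14871367 to 24515138 in Control. Levels are given as CPM, counts scaled to a common library size by edgeR's trimmed mean of M values (TMM).

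Interferons signal through paired receptors to JAK kinases, which phosphorylate STAT proteins. STAT proteins then form a complex with IRF9 that binds the interferon-stimulated response element (ISRE) in the promoters of its target genes, and STAT pairs, formed mostly after interferon gamma, bind a second element called GAS. The products sense foreign nucleic acid, block viral entry and replication, cut peptides for antigen presentation, and attach the ubiquitin-like protein ISG15 to other proteins. In brain, microglia, endothelium and other glia respond to interferon, and a low level of these transcripts is present without infection.

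To show what such promoters look like, the 250 bases before the start site are printed for Isg15 (chr4:156200819-156201068, minus strand), Ifit3 (chr19:34583279-34583528, plus strand), Ifit1 (chr19:34640639-34640888, plus strand) and Oasl2 (chr5:114896684-114896933, plus strand), all from RefSeq on GRCm38.p6 and read 5′ to 3′ on the strand of the gene. Capitals mark matches to the ISRE letters, read as GAAA, any 2 bases and GAAA again, or as the reverse complement of that pattern, TTTC, any 2 bases and TTTC.
Isg15: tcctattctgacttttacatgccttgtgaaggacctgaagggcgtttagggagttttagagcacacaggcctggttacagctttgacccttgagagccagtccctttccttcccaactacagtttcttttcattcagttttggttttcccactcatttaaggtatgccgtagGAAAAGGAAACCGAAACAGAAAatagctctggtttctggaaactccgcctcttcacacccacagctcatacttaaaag
Ifit3: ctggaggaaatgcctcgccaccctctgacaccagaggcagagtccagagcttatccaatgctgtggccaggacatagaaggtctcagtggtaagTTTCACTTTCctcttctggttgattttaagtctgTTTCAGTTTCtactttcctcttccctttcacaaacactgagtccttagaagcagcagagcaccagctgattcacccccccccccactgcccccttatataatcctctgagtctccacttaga
Ifit1: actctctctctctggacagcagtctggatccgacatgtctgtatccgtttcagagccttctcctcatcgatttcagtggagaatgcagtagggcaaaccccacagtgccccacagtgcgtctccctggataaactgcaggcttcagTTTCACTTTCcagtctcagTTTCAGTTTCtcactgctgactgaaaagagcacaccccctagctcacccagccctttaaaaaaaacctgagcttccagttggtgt
Oasl2: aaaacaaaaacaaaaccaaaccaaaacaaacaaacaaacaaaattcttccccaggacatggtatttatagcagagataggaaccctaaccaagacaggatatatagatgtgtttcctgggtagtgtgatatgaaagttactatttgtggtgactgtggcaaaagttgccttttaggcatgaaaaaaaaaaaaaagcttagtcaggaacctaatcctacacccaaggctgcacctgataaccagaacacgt
Isg15 held 3 matches that overlap one another, between positions -78 and -57 from the start. Ifit3 had matches at -156 to -147 and at -122 to -113, and Ifit1, a neighbour on chromosome 19, at -104 to -95 and at -85 to -76. No match was found in the printed stretch of Oasl2, which says only that these letters are absent from it.

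RefSeq's table held promoter windows of 300 bases, 250 before and 50 after the start, for 34 of the genes. Dhx58, Ifi27, Mx1, Mx2, Parp9, Parp14, Rtp4, Usp18 and Zbp1 had no entry. The ISRE letters, searched on both strands, occurred in 15 of the 40 windows of these genes (37.5%), and in 1131 of 32851 windows of all genes (3.44%). The GAS letters TTCNNNGAA, which read alike on both strands, occurred in 8 of the 40 windows (20%) and in 8.3% of all windows. Besides the genes printed above, the ISRE matches were in Ifih1, Gbp7, Gbp3, Gbp2, Ddx58, Trim30a, Ifitm3, Bst2, Stat2, Rsad2 and Eif2ak2. In Ifitm3 a match (GAAACCGAAA) lay just after the start, at positions 20 to 29, and overlapped a GAS match at 14 to 22. The windows of Psmb9 and Tap1, which are transcribed away from each other on chromosome 17, shared 275 bases.

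The first question was how strongly these genes are expressed in the hippocampus. They were read by few fragments: over the 7 libraries the median gene of the 39 tested had 3.84 CPM, against 22.5 CPM over all 14417 tested genes, on a scale that is not divided by length. Of the 39, 6 averaged above 10 CPM. Per kilobase of exon, which allows genes to be compared, Ifi27 had the highest level at 23.7 CPM per kb, followed by Ifitm3 (12.4), Lgals3bp (8.58), Ifit3 (7.38) and Tapbp (6.76 CPM per kb). The bottom of the order held Mx1 (0.0597), Oasl1 (0.0984), Ifi44 (0.0995) and Zbp1 (0.102 CPM per kb). Exon lengths came from GENCODE M21 on GRCm38, and the sources used here do not give the build behind the deposited counts.

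Low-count genes were removed before testing, and 39 of the 42 genes passed. The rest were read by only a few fragments. Mx1, a dynamin-like GTPase that blocks influenza virus, was covered by 3, 7, 7 and 3 counts in the NIHHL libraries, replicates 1 to 4, against 3, 1 and 5 in Control, replicates 1 to 3. Zbp1, a sensor of Z-form nucleic acid, had 15, 9, 5 and 4 counts in NIHHL and 5, 10 and 1 in Control, and Oasl1, a relative of the oligoadenylate synthetases, had 5, 6, 3 and 4 in NIHHL and 4, 3 and 9 in Control. The ranges of the groups overlapped in each of these 3 genes.

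The second question was whether the genes differ 1 month after noise. No single gene of the list passed the test, while most had a slightly higher mean in NIHHL. By edgeR's quasi-likelihood test with Benjamini-Hochberg adjustment over all genes, 0 of the 39 were called at an adjusted p under 0.05, where 0% of all tested genes were called, and the lowest adjusted p of the list was 0.996. DESeq2 and limma-voom also called 0 of them. At an unadjusted p under 0.05 there were 3 of the 39 genes (7.69%), all higher in NIHHL, beside 2.32% of all tested genes that were higher at that level, and 0 of the 39 were lower, beside 1.31%. In either direction the share over all tested genes was 3.63%. When single libraries were left out, this count of 3 became 0 if NIHHL replicate 1 or 3 was missing, 1 if NIHHL replicate 2 or Control replicate 3 was, and 5 if NIHHL replicate 4 was. It was 2 if Control replicate 1 or 2 was missing.

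The log2 fold change (NIHHL over Control) was above 0 in 34 of the 39 genes, 87.2%, beside 49.9% of all tested genes. Its median was 0.17, against -4.54e-04 over all genes. The sizes were small, and 37 of the 39 lay within 0.5 of 0. Of the 39, 18 exceeded their standard error (SE) and 3 exceeded 2 SE, where the SE ran from 0.10 to 0.45. The same shares over all tested genes were not computed, so these counts have no background beside them. Without NIHHL replicate 1, and likewise without Control replicate 3, 28 of the 39 genes were above 0, and without Control replicate 3 the median was 0.10.

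**Figure D1:**
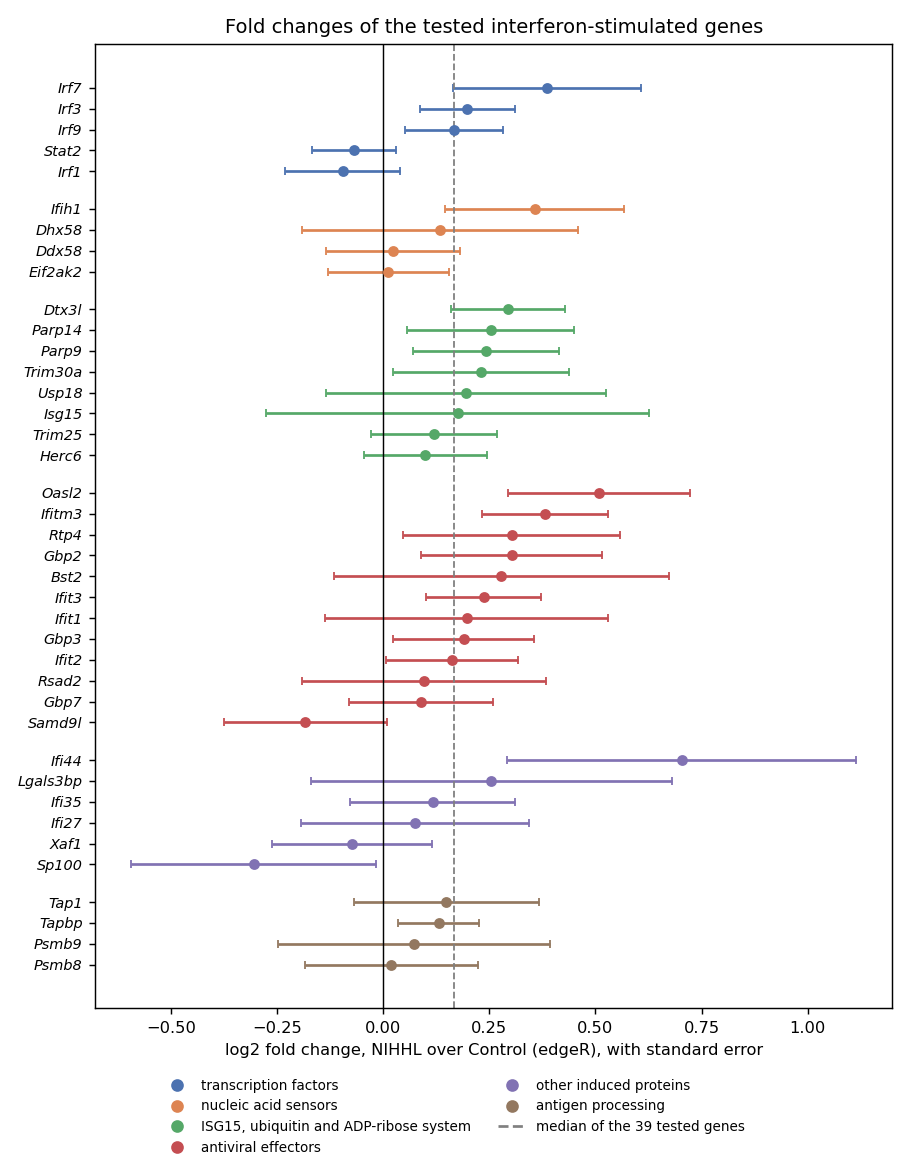
Log2 fold change (NIHHL over Control, x axis) with its standard error for each of the 39 tested genes, grouped by role (y axis, colours). 34 points lie right of 0, the dashed line marks the median of 0.17, and 18 points lie more than 1 SE from 0.

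In whole tissue, fewer cells of a type and less RNA per cell cannot be told apart, so markers of the cells that could carry these transcripts were read beside them. Microglia markers (15 of 15 tested, 9 higher in NIHHL) summed to between 680 and 851 CPM in NIHHL and between 733 and 773 in Control, and endothelial markers (9 tested, 3 higher) to between 262 and 269 CPM in NIHHL and between 265 and 290 in Control. The 10 markers of T and NK cells had 114 counts in all libraries together and none passed the low-count filter. Choroid plexus markers (10 of 10 higher in NIHHL, median log2 fold change 0.69) ran from 667 to 8673 CPM in NIHHL and from 206 to 7120 in Control. Ependymal markers (9 of 9 higher, median 0.50) summed to between 68.5 and 83.5 CPM in NIHHL, all above the Control range of 41.1 to 62.5. Oligodendrocyte markers (8 of 8 higher, median 0.21) ran from 8273 to 9733 CPM in NIHHL and from 7174 to 8997 in Control. Meningeal fibroblast markers (7 of 8 higher, median 0.19) ran from 164 to 377 CPM in NIHHL, highest in replicate 1, and from 133 to 246 in Control. Astrocyte markers (8 of 8 higher, median 0.07) ran from 2615 to 3025 CPM in NIHHL and from 2605 to 2795 in Control. Border macrophage markers (2 of 7 higher, median -0.06) ran from 11.6 to 13.4 CPM in NIHHL and from 10.7 to 13.9 in Control. Medians were also below 0 for neuron markers (4 of 10 higher, median -0.04) and red blood cell markers (2 of 5 higher, median -0.05). Of 7 monocyte and neutrophil markers 1 was tested, with a log2 fold change of -0.08. The part of these cells in the direction of the list was not tested.

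Among the antiviral effectors, the gene that marks the list, Oasl2 (ENSMUSG00000029561, chromosome 5), encodes a relative of the oligoadenylate synthetases with ubiquitin-like domains. It stood at 4.19, 5.23, 4.90 and 3.24 CPM in NIHHL replicates 1 to 4 and at 3.44, 2.39 and 3.49 CPM in Control replicates 1 to 3. NIHHL replicate 4 fell inside the Control range, while replicates 1 to 3 exceeded it. Its log2 fold change was 0.51 (SE 0.21), with p = 0.0372 before adjustment and 0.996 after it by edgeR, and p = 0.114 by an exact permutation test, two-sided and run on log2 CPM, whose smallest possible p is 0.0286. Microglia markers summed to 747, 851, 796 and 680 CPM in NIHHL replicates 1 to 4, the same order as Oasl2, and to 773, 751 and 733 CPM in Control replicates 1 to 3, where the order was different. The part of microglia in the level of Oasl2 was not tested.

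Ifitm3 (ENSMUSG00000025492, chromosome 7), a membrane protein that stops viruses from fusing with the cell, had the smallest p of the list. Its levels were 11.0, 8.62, 10.1 and 7.61 CPM in NIHHL and 7.15, 7.76 and 6.60 CPM in Control, so that only NIHHL replicate 4 reached into the Control range. The log2 fold change was 0.38 (SE 0.15), with an unadjusted p of 0.0253 and an adjusted p of 0.996 by edgeR, and the exact permutation p was 0.0857. Ifit3, whose protein binds viral RNA in a complex with other IFIT proteins, was at 12.4, 16.7, 14.7 and 11.4 CPM in NIHHL and at 11.5, 12.2 and 11.4 CPM in Control. A log2 fold change of 0.24 (SE 0.14) resulted, and its counts carried decimals in all 7 libraries, as happens when reads are divided with a near-identical copy such as Ifit3b, so its level is uncertain.

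In all 12 tested effectors the groups overlapped. Ifit1 averaged 2.01 ± 0.987 CPM in NIHHL and 1.75 ± 0.136 CPM in Control (SD, n = 4 and 3), with its highest value of 3.45 in NIHHL replicate 2 alone. Ifit2 averaged 7.96 ± 0.857 CPM in NIHHL and 7.12 ± 1.33 CPM in Control. Rsad2 (viperin, which makes a chain-terminating nucleotide) averaged 1.15 ± 0.186 CPM in NIHHL and 1.08 ± 0.241 CPM in Control. The guanylate-binding protein Gbp2 averaged 5.33 ± 1.38 CPM in NIHHL and 4.36 ± 0.632 CPM in Control. Of the 12 tested effectors 11 had a log2 fold change above 0, with a median of 0.22, and Samd9l was the exception at -0.18 (SE 0.19).

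**Figure D2:**
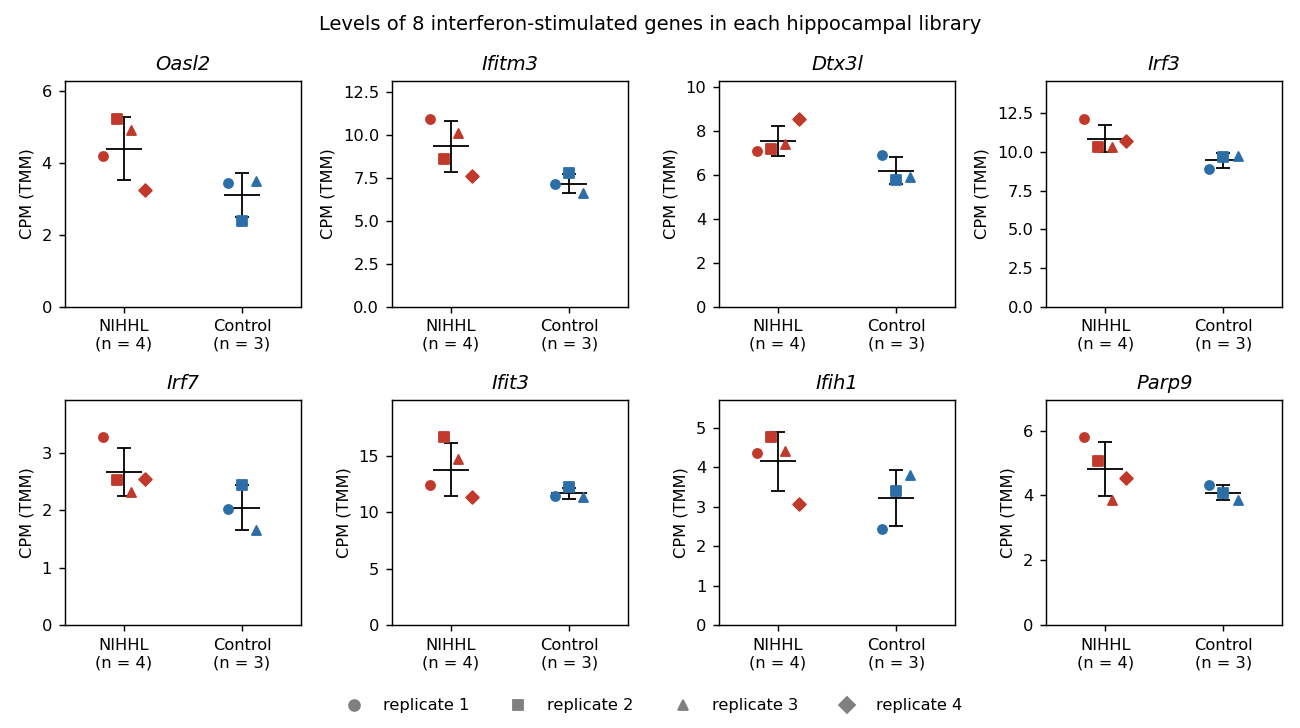
Level in CPM (y axis, from 0) of 8 genes in the NIHHL and Control libraries; symbols give the replicate, and the bars are the mean and SD. The groups do not overlap in Dtx3l and Irf3, and in the other 6 genes at least 1 NIHHL library falls within or below the Control range.

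The transcription factors of the pathway divided. Irf3 (ENSMUSG00000003184, chromosome 7), which is present before infection and turns on the interferon beta gene when sensors fire, was at 12.2, 10.3, 10.3 and 10.7 CPM in NIHHL and at 8.90, 9.69 and 9.76 CPM in Control. The groups did not overlap. Its log2 fold change was 0.20 (SE 0.11), with p = 0.103 before adjustment and an adjusted p of 0.996 by edgeR, and p = 0.0286 by the exact permutation test, the smallest it can give. Irf3 shares 88 exon bases with Bcl2l12 on the opposite strand, where reads cannot be told apart without strand information.

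Irf7, which interferon itself induces and which amplifies the response, was at 3.27, 2.53, 2.31 and 2.54 CPM in NIHHL and at 2.02, 2.43 and 1.65 CPM in Control. NIHHL replicate 1 was highest and NIHHL replicate 3 lay below Control replicate 2. This gave a log2 fold change of 0.39 (SE 0.22, unadjusted p = 0.108 by edgeR). Irf9 averaged 9.30 ± 0.715 CPM in NIHHL and 8.28 ± 0.307 in Control (SD), a log2 fold change of 0.17 (SE 0.12). Its partner Stat2 had a log2 fold change of -0.07 (SE 0.10), at 16.3 ± 1.43 CPM in NIHHL and 17.1 ± 0.469 in Control. Irf1, a factor that interferon gamma induces, stood at -0.10 (SE 0.14).

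Groups that did not overlap were found in 2 of the 39 genes, Irf3 and Dtx3l (5.13%), beside 5.2% of all tested genes in either direction, which is near the background. Both genes lay wholly above Control, as 2.84% of all tested genes did, and 0 of the 39 lay wholly below, beside 2.37%. Dtx3l (ENSMUSG00000049502, chromosome 16) is a ubiquitin ligase that works in a complex with the ADP-ribosyltransferase Parp9. It was at 7.09, 7.18, 7.38 and 8.55 CPM in NIHHL and at 6.88, 5.75 and 5.89 CPM in Control, with a log2 fold change of 0.29 (SE 0.13), p = 0.0498 before adjustment and 0.996 after it by edgeR, and p = 0.0286 by the exact permutation test. The lowest NIHHL value and the highest Control value were close.

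Parp9 was at 5.80, 5.06, 3.85 and 4.54 CPM in NIHHL and at 4.31, 4.07 and 3.87 CPM in Control (log2 fold change 0.24, SE 0.17), and its groups overlapped. Parp9 and Dtx3l share 458 exon bases on opposite strands, and the counts of both carried decimals in 5 libraries, so the division of reads between them is uncertain. Parp14, another ADP-ribosyltransferase, had a log2 fold change of 0.25 (SE 0.20). All 8 tested genes of the ISG15, ubiquitin and ADP-ribose group were above 0, with a median of 0.21, and 0 were called.

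Isg15 itself was read by few fragments and was the least even of this group, at 35, 16, 16 and 5 counts in NIHHL replicates 1 to 4 and at 12, 17 and 21 counts in Control replicates 1 to 3. NIHHL held both the highest level, 1.61 CPM in replicate 1, and the lowest, 0.295 CPM in replicate 4. Its log2 difference was within its error, at 0.18 (SE 0.45). Usp18, the protease that removes ISG15 and damps the interferon receptor, was highest where Isg15 was lowest: it stood at 1.52, 1.03, 1.49 and 2.77 CPM in NIHHL, against 1.48, 1.68 and 1.27 CPM in Control. Trim25, a ubiquitin ligase that acts on RIG-I, averaged 8.83 ± 1.59 CPM in NIHHL and 8.14 ± 0.253 in Control (log2 fold change 0.12, SE 0.15).

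The 4 tested sensors of foreign nucleic acid had the lowest median log2 fold change of the role groups, 0.08. Ddx58 had a log2 fold change of 0.02 (SE 0.16), with 6.95, 5.46, 5.62 and 6.90 CPM in NIHHL and 7.01, 6.29 and 5.19 CPM in Control. Eif2ak2, the double-stranded RNA kinase PKR, stood at 0.01 (SE 0.14), with 6.65 ± 0.826 CPM in NIHHL and 6.61 ± 0.638 in Control (SD), and Dhx58, a regulator of the other RNA helicases, at 0.13 (SE 0.33). Ifih1, the sensor of long double-stranded RNA called MDA5, had the largest value of the sensors with all libraries. Its levels were 4.37, 4.77, 4.40 and 3.07 CPM in NIHHL and 2.43, 3.40 and 3.82 CPM in Control, a log2 fold change of 0.36 (SE 0.21, unadjusted p = 0.118 by edgeR), and NIHHL replicate 4 again lay within the Control range. With 1 library left out, the log2 fold change of Ifih1 ran from 0.21 to 0.49. It was 0.21 without Control replicate 1, its lowest library, as was that of Dhx58, so the rank of Ifih1 depended on that library.

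Antigen processing genes had log2 fold changes from 0.02 to 0.15, beside a median of 0.17 for the whole list. Tapbp (tapasin), which helps load peptides onto MHC class I, was at 26.0, 22.7, 24.6 and 28.5 CPM in NIHHL and 24.1, 23.7 and 22.0 CPM in Control (log2 fold change 0.13, SE 0.10). Tap1, a subunit of the peptide transporter, had a log2 fold change of 0.15 (SE 0.22). The immunoproteasome subunits Psmb8 and Psmb9 stood at 0.02 (SE 0.20) and 0.07 (SE 0.32). The 4 genes of this group were all above 0, with a median of 0.10, and their groups overlapped. Psmb9 and Tap1 share 212 exon bases on opposite strands. Tapbp shares 149 with Zbtb22 on its own strand and 904 with Gm19412 on the opposite strand, and Psmb8 shares 498 with Gm20496 on the opposite strand.

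**Figure D3:**
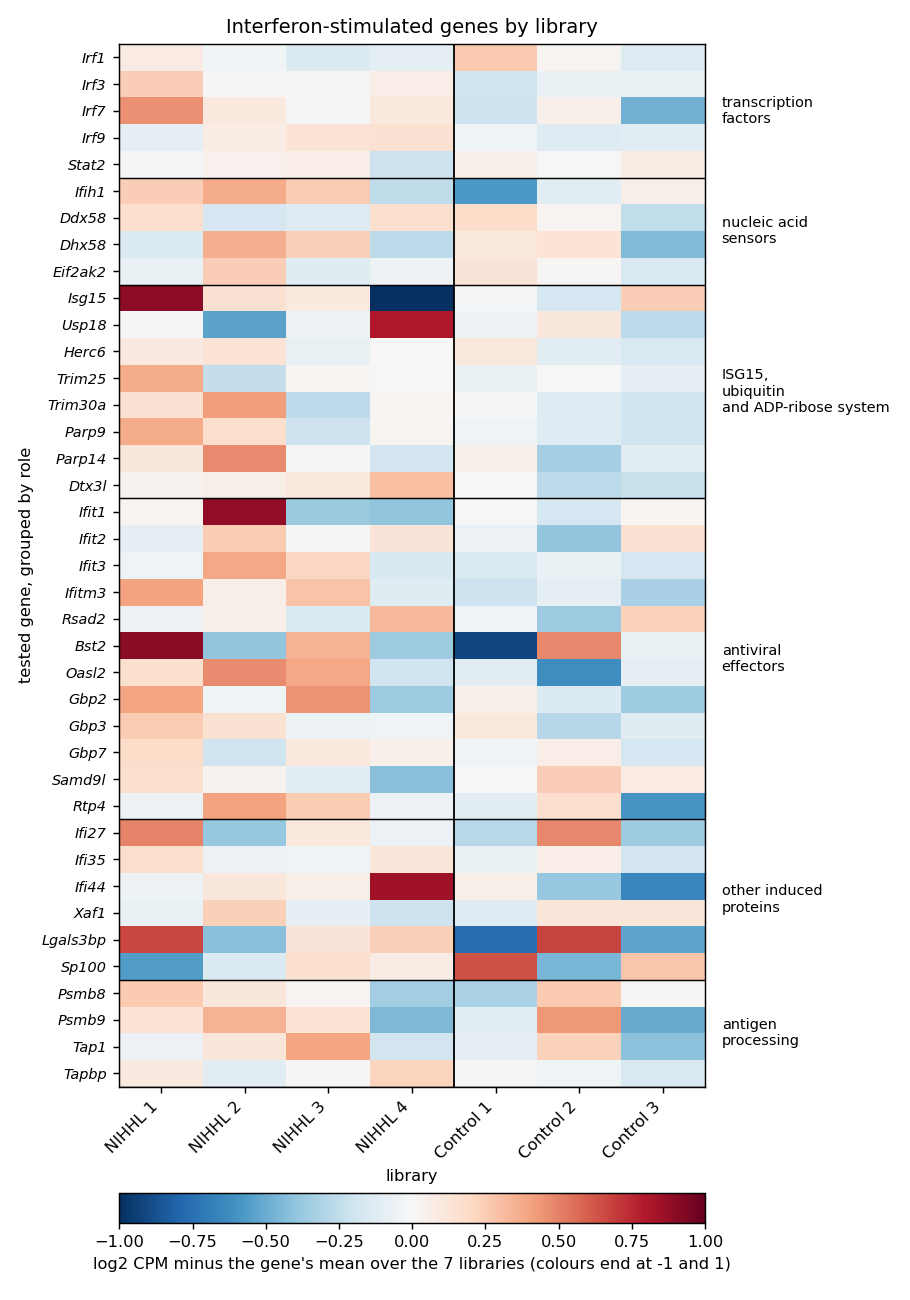
Log2 CPM of the 39 tested genes (rows, grouped by role) in each library (columns), as the difference from the gene's mean over the 7 libraries; red is above and blue below the mean. NIHHL replicates 1 and 2 hold the highest value of 12 genes each, Control replicate 3 the lowest value of 13, and NIHHL replicate 4 the lowest value of 7.

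Across the list the libraries differed within as well as between groups. The highest level of a gene was in NIHHL replicate 1 for 12 genes, in replicate 2 for 12, in replicate 3 for 2 and in replicate 4 for 6, and in Control replicates 1 to 3 for 3, 3 and 1. The lowest was most often in Control replicate 3, for 13 genes, but in NIHHL replicate 4 and Control replicate 2 for 7 each. As a mean over the 39 genes, the log2 CPM stood 0.16, 0.09, 0.06 and -0.05 from the mean of the libraries in NIHHL replicates 1 to 4 and -0.07, -0.02 and -0.16 in Control replicates 1 to 3. NIHHL replicate 4 was thus below Control replicate 2. That NIHHL library also had the lowest microglia sum of the 7.

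A few genes of the list were highest in NIHHL replicate 1 and Control replicate 2, the top pair of 8.62% of all tested genes. Ifi27, a membrane protein strongly induced by interferon alpha and the gene with the highest level per kb of the list, was at 47.7, 26.0, 36.3 and 32.4 CPM in NIHHL and at 27.8, 47.0 and 26.3 CPM in Control. Lgals3bp, a secreted glycoprotein that binds galectins, was at 36.3, 17.1, 24.9 and 27.0 CPM in NIHHL and at 13.4, 36.5 and 15.8 CPM in Control. In both, NIHHL replicate 1 and Control replicate 2 were the top pair and the groups overlapped almost fully.

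The same libraries led for the choroid plexus, the tissue that secretes cerebrospinal fluid and can come away with the hippocampus. Its 10 markers summed to 8673, 667, 4778 and 4444 CPM in NIHHL replicates 1 to 4 and to 206, 7120 and 1543 CPM in Control replicates 1 to 3. The choroid plexus was not alone in this. Red blood cell markers had the same top pair, at 594, 445, 281 and 209 CPM in NIHHL and 182, 628 and 390 CPM in Control. Meningeal fibroblast markers did as well, at 377 CPM in NIHHL replicate 1 and 246 CPM in Control replicate 2. These libraries also had the largest total counts. Bst2 (tetherin), which holds budding virus at the cell surface, had the same top pair, with 5.94, 2.36, 4.02 and 2.42 CPM in NIHHL and 1.62, 4.41 and 2.97 CPM in Control. Of the 39 genes 5 had this top pair (12.8%), the others being Samd9l and Psmb8, beside 8.62% of all tested genes. The log2 fold changes were 0.08 (SE 0.27) for Ifi27, 0.26 (SE 0.43) for Lgals3bp and 0.28 (SE 0.40) for Bst2, with adjusted p = 0.996 by edgeR for each. With the choroid plexus markers as a covariate, chosen after the data were seen, the log2 fold change of Ifi27 was -0.15 while 30 of the 39 genes were above 0 with a median of 0.15. Whether these transcripts came from choroid plexus, blood or meninges was not tested.

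**Figure D4:**
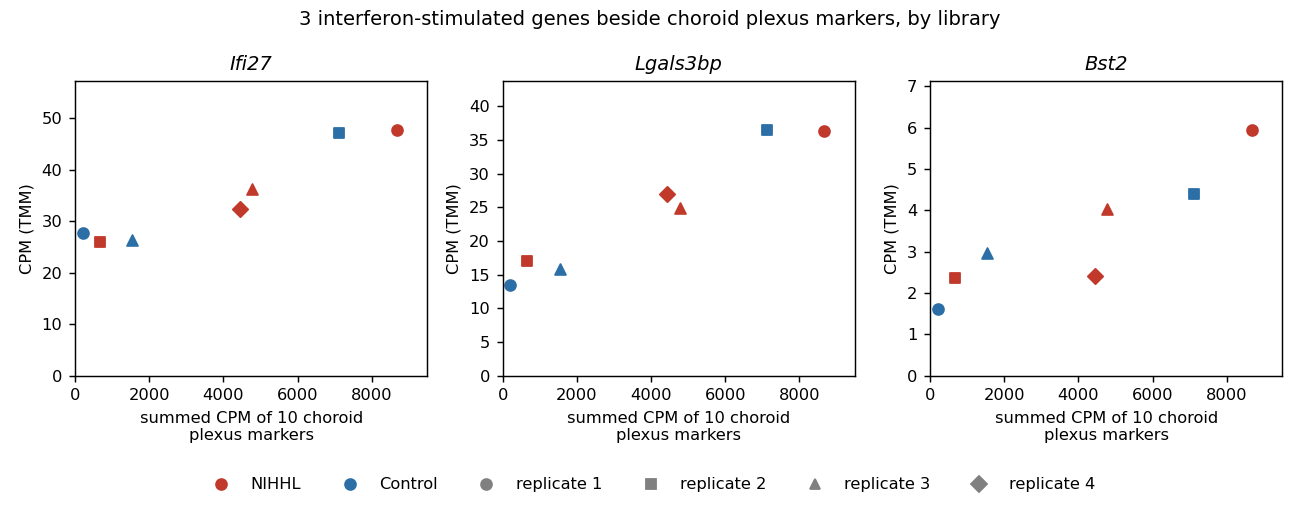
CPM of Ifi27, Lgals3bp and Bst2 (y axes, from 0) against the summed CPM of 10 choroid plexus markers (x axis) in the NIHHL (red) and Control (blue) libraries; symbols give the replicate. NIHHL replicate 1 and Control replicate 2 stand together at the top right in each panel.

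Ifi27 and Lgals3bp together made up between 17.2% and 28.3% of the summed CPM of the list in NIHHL libraries and between 17.9% and 31.0% in Control. The summed level of all 42 genes was 297, 250, 264 and 252 CPM in NIHHL and 230, 270 and 221 CPM in Control, and the groups overlapped. Without these 2 genes it was 213, 207, 202 and 192 CPM in NIHHL and 189, 186 and 179 CPM in Control, so that the groups no longer overlapped. This split was made after the values were seen and has no test. Of the remaining genes without a fixed role, Ifi44 had the largest log2 fold change of the list with all libraries, 0.70 (SE 0.41). It rested on 12, 11, 11 and 19 counts in NIHHL and 9, 10 and 7 counts in Control. Without NIHHL replicate 4 the value of Ifi44 was 0.43, below that of Oasl2 in the same fit, at 0.63. Sp100, a protein of nuclear bodies, had the lowest with all libraries, -0.30 (SE 0.29), with an NIHHL range of 1.56 to 2.64 CPM against 3.71, 1.68 and 2.88 CPM in Control replicates 1 to 3. Leaving out single libraries moved it between -0.57 (Control replicate 2 missing) and -0.0489 (Control replicate 1 missing), which is closer to 0 than Stat2 in the same fit, at -0.07. Ifi35 stood at 0.12 (SE 0.20).

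The next question was whether the rest of the interferon pathway, from the ligands on, differed in the same direction as the list. The ligands were almost unread: 10 of 12 genes for type I, II and III interferons, with Ifnb1 and Ifng among these, had no count in any library, which allows a level of up to 0.0223 CPM over the 7 libraries together (3 counts of the total, counting error only). Ifnk and Ifnz had 1 count each. Receptors and JAK kinases were well read, except Ifnlr1, a chain of the type III receptor. Ifnlr1 had 29 counts in all libraries together and did not pass the low-count filter. Ifnar1, a chain of the type I receptor, averaged 42.0 ± 1.76 CPM in NIHHL and 41.4 ± 0.899 in Control (SD; log2 fold change 0.02, SE 0.07), and Jak1 averaged 190 ± 7.52 CPM in NIHHL and 189 ± 10.4 CPM in Control (0.0046, SE 0.07).

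Of 5 tested receptor genes 4 were above 0, with a median log2 fold change of 0.09. Of 7 tested JAK and STAT genes 5 were above 0, with a median of 0.04, and 0 of either group were called. Among the receptor genes, Ifngr1, the ligand-binding chain for interferon gamma, had the smallest p. It was at 20.1, 18.7, 18.2 and 17.9 CPM in NIHHL and at 16.5, 16.8 and 16.1 CPM in Control. All NIHHL libraries lay above all Control libraries, as in 2.84% of all tested genes. The log2 fold change of Ifngr1 was 0.19 (SE 0.09, unadjusted p = 0.0551 by edgeR). Ifngr2, the other chain of that receptor, stood the other way at -0.12 (SE 0.08), with 64.9 CPM in NIHHL and 70.2 CPM in Control.

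Of 17 tested genes listed as sensors, adaptors and kinases, 13 were above 0, with a median log2 fold change of 0.06, and 0 were called. Their place before or after interferon was not tested. In 4 of them (23.5%, beside the 2.84% given above) all NIHHL libraries lay above all Control libraries: Ticam1, Myd88, Aim2 and Ifi204, of which the last 3 are named after their values were seen. Ticam1 (TRIF), the adaptor of Toll-like receptor 3, was at 6.49, 6.09, 7.05 and 7.02 CPM in NIHHL and at 4.85, 5.58 and 4.24 CPM in Control. Its log2 fold change of 0.44 (SE 0.15) had p = 0.0110 before adjustment and 0.996 after it by edgeR, and an exact permutation p of 0.0286. Aim2, a sensor of cytosolic DNA, was at 2.90, 3.68, 2.48 and 3.83 CPM in NIHHL and at 1.96, 2.27 and 2.31 CPM in Control (0.55, SE 0.21). Ifi204 rested on few counts, 14, 11, 11 and 13 in NIHHL and 2, 14 and 7 in Control. Its groups parted only after scaling to library size, and narrowly. The lowest NIHHL level was 0.606 CPM in replicate 3, and the highest Control level 0.587 CPM in replicate 2. Of 14 tested negative regulators and nucleases 8 were above 0 (median 0.02), and Tnfaip3, which restrains NF-kappaB and sensor signalling, stood at -0.25 (SE 0.12), with all NIHHL libraries below all Control libraries, as in 2.37% of all tested genes. Samhd1, an enzyme that breaks down the building blocks of DNA, stood the other way at 0.15 (SE 0.10), with NIHHL wholly above Control, and is named after its values were seen.

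Other interferon-induced genes, 73 written down beside the list and 62 of them tested, lay close to the background. A log2 fold change above 0 was found in 35 of the 62 (56.5%), with a median of 0.03, and 0 were called. All NIHHL values exceeded all Control values in 2 of them (3.23%), beside 2.84% of all tested genes, which is near the background. The 2 genes, Gbp9 and Helz2, are named after their values were seen. Slfn9, a Schlafen family gene, had the smallest p, at 0.782, 1.26, 1.32 and 1.06 CPM in NIHHL and 0.944, 0.378 and 0.519 CPM in Control (log2 fold change 0.90, SE 0.38, unadjusted p = 0.0374 by edgeR). Abundant genes of this group differed little: B2m, the light chain of MHC class I, was at 122 CPM in NIHHL and 126 CPM in Control (-0.04, SE 0.10), and Ly6e was at 154 CPM in NIHHL and 164 CPM in Control (-0.10, SE 0.08). Whether the 2 lists differ was not tested.

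**Figure D5:**
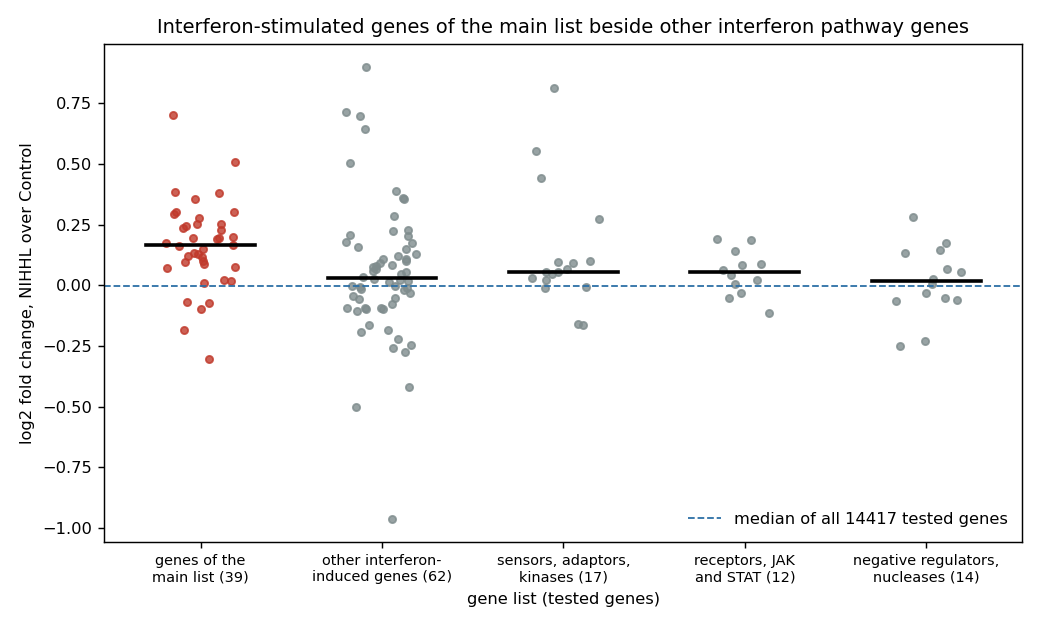
Log2 fold change (NIHHL over Control, y axis) of every tested gene in the main list and in 4 groups of other interferon pathway genes (x axis, number tested in brackets); black bars are medians and the dashed line is the median of all genes. The main list has a median of 0.17 and the 62 other interferon-induced genes a median of 0.03, with points on both sides of 0.

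The fold changes were also read by promoter letters. Of the tested genes of the main list, 13 of 14 with an ISRE match were above 0 (median log2 fold change 0.19), and 15 of 19 without one (median 0.13). Over all tested genes with a window, 414 held an ISRE match and 49.5% of these were above 0, with a median of -0.0021, beside 49.4% of the 10968 genes without a match and a median of -0.0016. For GAS the shares were 49.2% of 918 genes with a match and 49.4% of 10464 without. Matches are letters in a window and not sites shown to be bound.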

How the data were processed

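The deposited values are expected counts (estimated counts, not scaled to library size), and 90.7% of them were whole numbers. Of tools, StringTie 1.3.1, DESeq2, HISAT2 and Bowtie2 2.2.8 are listed in the submitters' processing notes, with no role stated. The sources used here do not give the build, annotation, counting step or strand setting. Per the labels' protocols, libraries were made from oligo(dT)-selected RNA with a NEBNext Ultra kit.

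Counts were rounded, and edgeR's filterByExpr (minimum count 10) left 14417 of 21965 genes. NIHHL (n = 4) was compared with Control (n = 3) by edgeR's quasi-likelihood test with TMM scaling, robust moderation and group as the only term, adjusted by Benjamini-Hochberg over all tested genes. Each SE was computed from the log2 fold change and the test's F statistic (its size over the root of F). Log2 CPM carried a prior count of 2. No pair of libraries was identical. Software was R 4.3.3, edgeR 4.0.16, limma 3.58.1 and DESeq2 1.42.0.

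The gene lists were chosen with earlier results of these data known. The 27 genes named by rule were Oasl2, up to 3 per role group by p, the highest by CPM in each, genes without overlap between groups, and the first by p of each pathway list; 1 of these is not reported here, and other genes were named after their values were seen. Alternatives covered scaling, tool, filter, rounding, omitted libraries, a replicate block and a choroid plexus covariate.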

Additional observations from a re-analysis of the deposited data

How the results depend on the processing

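Across 18 alternatives 0 genes of the list were called, and their median log2 fold change stayed above 0. It ran from 0.10 to 0.22 when 1 library was left out, and from 28 to 34 of the 39 genes were then above 0. It was 0.13 by limma-voom, 0.24 without the pair Control replicate 2 with NIHHL replicate 4, and 0.16 without Control replicate 2 with NIHHL replicate 1, the libraries richest in choroid plexus transcripts, an alternative chosen after seeing the data. Over all genes 0 were called, except 4 by DESeq2 (mt-Atp8, Hsd3b1, Akr1cl and Dnah6) and 1 (Gcat) without Control replicate 2 with NIHHL replicate 4; none is in the list. With fewer libraries the leave-one-out fits had 0 calls each.

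The labels do not say that replicate numbers pair the libraries. Same-numbered deviations from the group means correlated at -0.45, -0.44 and 0.06, which showed no pairing. So few pairs, in libraries that differ in tissue markers, cannot settle it. With the replicate block, which leaves out NIHHL replicate 4, 0 genes were called and the median of the list was 0.22. That fit turned the log2 fold change of Ddx58 to -0.0337.

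Of 482 values of named genes, 465 kept their direction. Those that reversed belong to 7 genes with small differences. With 1 library left out, the log2 fold change ran from -0.0893 to 0.12 for Ddx58, -0.0557 to 0.27 for Dhx58, -0.0767 to 0.0742 for Eif2ak2, -0.10 to 0.40 for Ifi27, -0.15 to 0.42 for Psmb9, -0.0071 to 0.35 for Tap1 and -0.0071 to 0.21 for Trim25. Ddx58 was also -0.0033 without the first of these pairs and -0.0132 without the second, and Ifi27 was -0.15 with the choroid plexus covariate. The cause was not tested. Depth limits the low genes: 3 of the 39 averaged under 1 CPM.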

Other observations

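Some families of interferon-induced genes held members with log2 fold changes on both sides of 0, and others did not. The 5 tested Ifit genes on the lists were all above 0, from 0.03 for Ifit1bl1 to 0.24 for Ifit3. Among guanylate-binding proteins, Gbp2, Gbp3, Gbp7 and Gbp9 were above 0 and Gbp4 and Gbp5 below it, with Gbp6 at -0.0030 (SE 0.26). Gbp9 averaged 3.54 ± 0.433 CPM in NIHHL and 2.74 ± 0.351 in Control (log2 fold change 0.36, SE 0.18), while Gbp4 averaged 2.33 ± 0.447 CPM in NIHHL and 3.35 ± 0.702 in Control (-0.50, SE 0.22). Among Schlafen genes, Slfn2 (0.20), Slfn8 (0.09) and Slfn9 (0.90, SE 0.38) were above 0 on the log2 scale and Slfn5 (-0.42, SE 0.19) below it. None of these was called by edgeR after adjustment, with n = 4 NIHHL and 3 Control libraries, and the families were picked after their values were seen and have no test of direction. Reads of guanylate-binding protein and Schlafen paralogs can be divided among similar copies, so their levels are uncertain.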
